A study of Mus musculus with 7 samples.

Results

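The genes described are those that cut, carry and load peptides for MHC class I: the transporter subunits Tap1 and Tap2, the loading chaperone Tapbp (tapasin), the immunoproteasome subunits Psmb8, Psmb9 and Psmb10, the light chain B2m, the nonclassical heavy chains H2-T23 and H2-M3, and the transactivator Nlrc5. They were taken by symbol, using each probe set that carried exactly 1 gene symbol. Of the 10 genes listed, 9 had such a probe set, with 15 probe sets among the 45101 on the array and among 18193 genes in all. H2-T23 was carried only by 2 probe sets that shared another symbol, and no value is given for it. Of the 15 probe sets, 13 passed the filter on low values, and each of the 9 genes was tested through its brightest probe set.

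The RNA came from macrophages sorted by GFP and F4/80, the surface protein encoded by Adgre1, out of papain-digested brain tissue of C57/Bl6 mice. The 4 GL261 arrays came from tumours of GL261, a mouse glioma cell line, that had been placed in the brain of mice bearing transplanted GFP bone marrow and had grown for 21 days. The 3 normal brain arrays came from mice aged 8 weeks. Whether labelled marrow had been given to them too, and how old the tumour-bearing mice were, is not given in the sources used here. Any difference between the groups in marrow transplant or mouse age therefore cannot be told apart from the tumour. Nor do the labels say whether each array came from a separate mouse, so p-values measure only the spread between these arrays, and their number limits the precision. Each value is a MAS5 signal, a linear intensity that the authors had scaled to a common target on every array.

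The proteasome cuts cytosolic proteins into peptides. Interferons replace its 3 constitutive catalytic subunits by the inducible ones encoded by Psmb8, Psmb9 and Psmb10. The transporter Tap1-Tap2 moves the peptides into the endoplasmic reticulum, where tapasin holds empty class I molecules next to it, and the heavy chain, B2m and peptide then travel to the cell surface for inspection by CD8 T cells and NK cells. Nlrc5 switches on many of these genes through a shared promoter module that includes an X2 box and a Y box, and interferon acts through separate elements, the ISRE and GAS. In macrophages this machinery serves both the display of the cell's own peptides and cross-presentation of engulfed material.

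Tap1 and Psmb9 are transcribed away from each other from a shared stretch of chromosome 17. That stretch is shown because both genes were measured and only Tap1 passed the test, and the bases before the B2m start are shown beside it because B2m had the lowest fold change of the genes measured. Both are from RefSeq on GRCm38.p6, given 5′ to 3′ on the + strand, chr17:34187331-34187555 (225 bases) and chr2:122147437-122147686 (250 bases). Capitals mark the letters searched on both strands: TGACG, the core of the X2 box, ATTGG or its reverse CCAAT, the core of the Y box, and GAAANNGAA, a core of the ISRE.
Tap1 and Psmb9, between the starts: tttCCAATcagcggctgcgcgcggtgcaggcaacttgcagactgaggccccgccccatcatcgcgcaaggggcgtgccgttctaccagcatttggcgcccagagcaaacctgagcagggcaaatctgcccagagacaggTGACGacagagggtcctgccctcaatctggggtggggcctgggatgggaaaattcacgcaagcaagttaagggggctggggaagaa
B2m, before the start: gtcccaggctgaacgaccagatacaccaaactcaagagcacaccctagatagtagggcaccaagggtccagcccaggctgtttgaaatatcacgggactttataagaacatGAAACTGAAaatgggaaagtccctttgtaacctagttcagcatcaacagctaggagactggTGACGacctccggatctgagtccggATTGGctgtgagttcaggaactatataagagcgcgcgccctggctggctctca
Psmb9 is read leftward from the left end of the shared stretch and Tap1 rightward from its right end. The TGACG in it began 86 bases before the Tap1 start and the Y box letters 222 bases before it. In B2m, GAAACTGAA began 139, TGACG 78 and ATTGG 53 bases before the start. Over the 250 bases before the start of 32851 RefSeq promoters, TGACG occurred in 17.8%, ATTGG in 33.8%, GAAANNGAA in 7.13% and TTCNNNGAA, the GAS letters, in 7.02%. Among the 8 listed genes with a promoter window, TGACG was found in 4 (Tap1, Psmb9, B2m and H2-M3), ATTGG in 6 (also Tapbp and H2-T23), GAAANNGAA in 2 (B2m and H2-T23) and TTCNNNGAA in 2 (Psmb8 and H2-M3). These are matches of letters, not measured binding.

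The arrays had median signals of 50.9 to 65.0 in GL261 and 49.5 to 73.0 in normal brain (exact permutation p = 1, two-sided). The 3′ to 5′ ratio of the Gapdh control probe sets, a sign of RNA quality, was 1.64 to 1.89 in GL261 and 2.39 to 2.43 in normal brain, without overlap (exact permutation p = 0.0286, the smallest that 35 assignments of the arrays allow). For the actin control probe sets this ratio was 1.36 to 1.52 in GL261 and 1.43 to 1.64 in normal brain. The groups overlapped there (exact permutation p = 0.143). GL261 replicate 2 and normal brain replicate 1 were the most alike pair across the groups (r = 0.922 across tested genes, which are not independent replicates). That lay within the range of pairs inside normal brain (r = 0.896 to 0.927) and below that of pairs inside GL261 (r = 0.942 to 0.954). The 9 macrophage markers summed to 55916 to 77459 in GL261 and 65238 to 80368 in normal brain, with 1 called higher, 0 lower and 0 at background. The 7 homeostatic microglia markers with a probe set summed to 15636 to 22692 in GL261 and 32047 to 37605 in normal brain, with 5 of 6 tested called lower and 0 at background on all arrays. Other cells' markers also moved. Summed signals of the 8 neutrophil markers with a probe set were 16541 to 22952 in GL261 and 39749 to 51090 in normal brain (6 of 7 tested lower), and those of 8 B and plasma cell markers were 2004 to 3268 in GL261 and 7390 to 9620 in normal brain (5 of 7 tested lower). Those of 9 dendritic cell markers were 12674 to 17901 in GL261 and 21905 to 24556 in normal brain (2 of 9 tested lower), and those of 9 endothelial markers 551 to 2026 in GL261 and 3477 to 4009 in normal brain (3 of 8 tested lower). Those of 10 T and NK cell markers were 4216 to 8105 in GL261 and 3593 to 5001 in normal brain (2 of 10 tested higher), and those of 8 oligodendrocyte precursor and glioma markers 1028 to 1854 in GL261 and 335 to 642 in normal brain (4 of 7 tested higher). Over all tested genes, 5.92% were called higher and 4.2% lower. None of the markers in these lists was at background on every array, and their part in the results below was not tested. In such bulk preparations, fewer cells of a type and less RNA per cell cannot be told apart.

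The comparison of GL261 with normal brain asked how expression differs between macrophages of this glioma and those of normal brain. Of the 9 genes of the loading and immunoproteasome machinery, 1 rose in GL261, Tap1, and 0 fell, while 8 did not pass the test. Across all 12125 tested genes, 10.1% were called (5.92% higher and 4.2% lower), so 1 of 9 is near the background. The 9 fold changes lay between -0.28 and 0.69 on the log2 scale, with a median of 0.22 against 0.04 over all tested genes, and 6 of 9 were above 0. The median of the 9 moved with single arrays. It was 0.079 without GL261 replicate 3, against 0.043 over all tested genes. Leaving out normal brain replicate 2 gave 0.11 against 0.031, and leaving out normal brain replicate 1 gave 0.12 against 0.082. A call here is an adjusted p under 0.05 in limma with Benjamini-Hochberg adjustment over all tested genes, on log2(signal + 6), a scale that understates changes of dim genes. At an unadjusted p under 0.05, 2 of the 9 passed, Tap1 and Psmb10.

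**Figure D1:**
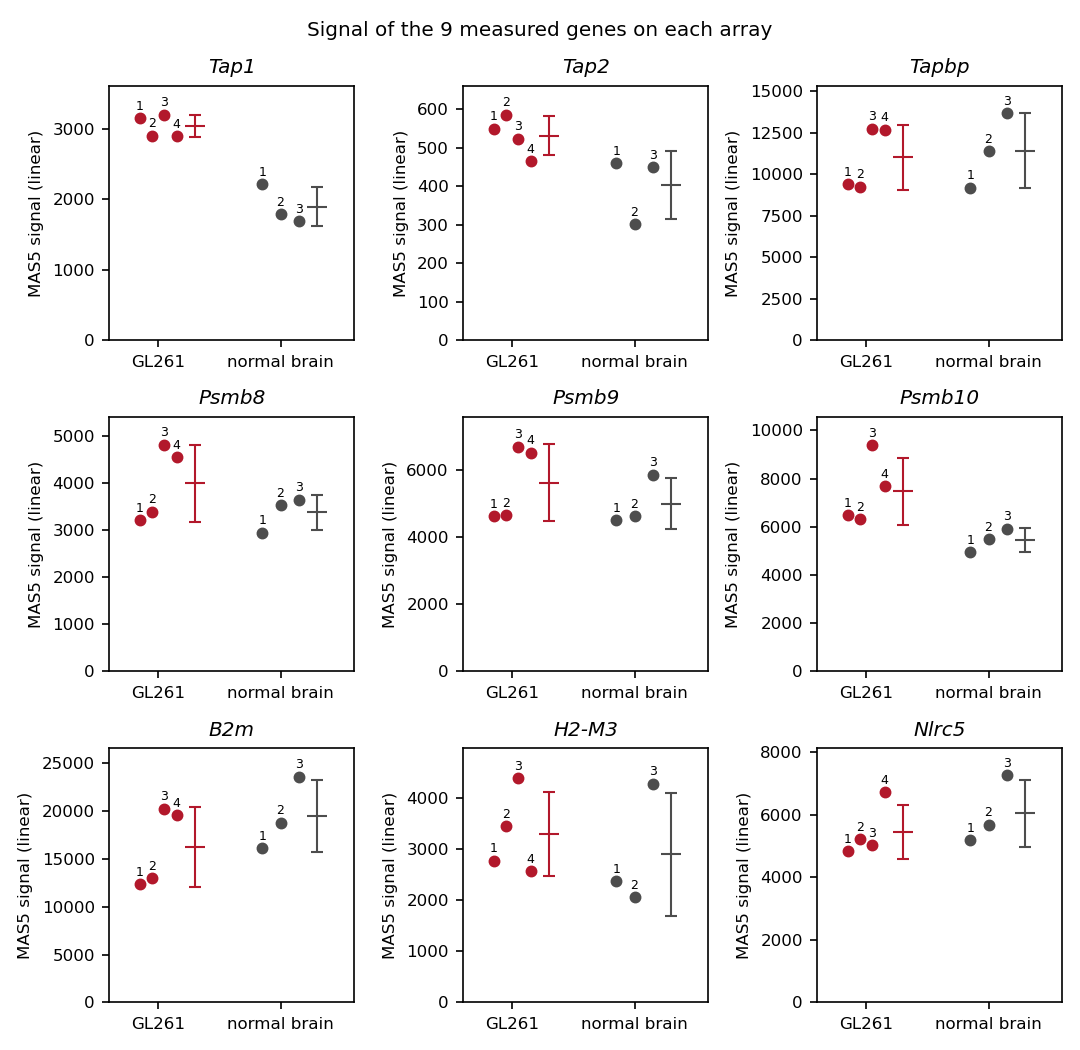
MAS5 signal (linear axis from 0) of the brightest probe set of each of the 9 measured genes on the 4 GL261 arrays (left, red) and the 3 normal brain arrays (right, grey); numbers are replicates, and the bar is the mean with its SD. Tap1, Tap2 and Psmb10 are the 3 genes whose groups do not overlap, and GL261 replicates 3 and 4 lie above 1 and 2 in 5 genes.

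The peptide transporter held the machinery's single call. Tap1, which with Tap2 forms the ATP-driven peptide pump, had signals of 3146, 2900, 3198 and 2897 in GL261 replicates 1 to 4, against 2217, 1788 and 1685 in normal brain replicates 1 to 3. Every GL261 array was above every normal brain array, and the GL261 arrays lay close together. The means were 3035 ± 159 in GL261 (SD, n = 4) and 1897 ± 282 in normal brain (SD, n = 3). On the log2 scale Tap1 rose by 0.69 (SE 0.15, 95% interval 0.36 to 1.01, limma adjusted p = 0.0163), a fold of 1.61. Its fold change was above that of 83.8% of tested genes. With 1 array left out at a time the Tap1 fold change was 0.61 to 0.80, and the call was lost without GL261 replicate 3 (0.66, adjusted p = 0.0555). It was also lost with arrays centred on their median (adjusted p = 0.0644), with variances that do not follow the signal (adjusted p = 0.0749) and with the mean of all probe sets (0.08, adjusted p = 0.922).

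Tap1 has 4 probe sets, and the others were dim. The second brightest gave 45.7, 30.6, 48.9 and 53.4 in GL261, against 74.2, 54.5 and 63.4 in normal brain. Here every GL261 array was below every normal brain array, the reverse of the bright probe set, and the difference did not pass the test (log2 -0.48, SE 0.49, adjusted p = 0.611 over probe sets). The remaining pair of probe sets did not pass the filter on low values. One was above background on 2 of 4 GL261 and 1 of 3 normal brain arrays, and the other on 0 of either. Of the 13 member probe sets tested, 1 was called, that of Tap1 above (adjusted p = 0.0312), where 5.45% of 27022 probe sets were. The part of RNA quality in the Tap1 difference was not tested. The Gapdh ratio also separated the groups, and the actin ratio did not.

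Tap2, the partner subunit, was above background on all arrays. Its signals were 550, 586, 523 and 465 in GL261, against 460, 302 and 450 in normal brain. The groups did not overlap, but GL261 replicate 4 and normal brain replicate 1 nearly met. The difference did not pass the test (log2 0.41, SE 0.29, 95% interval -0.22 to 1.04, limma adjusted p = 0.406), and the interval reaches past that of Tap1, so unequal behaviour of the subunits is not shown. The difference of log2 signals, Tap1 minus Tap2, was 2.51 ± 0.15 in GL261 (SD, n = 4) and 2.23 ± 0.33 in normal brain (SD, n = 3). That pair of genes was set side by side after the values were seen, and the arrays overlapped.

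Tapasin, the product of Tapbp, was far above background on all arrays. Its signals were 9385, 9250, 12732 and 12678 in GL261, against 9187, 11378 and 13686 in normal brain. The groups overlapped through their whole range, with GL261 replicates 1 and 2 next to normal brain replicate 1. The log2 difference of -0.05 was not called (SE 0.18, 95% interval -0.45 to 0.35, adjusted p = 0.895), and its sign turned under 7 of 19 other settings. A second, dimmer Tapbp probe set differed by 0.37 on the log2 scale, also without a call (SE 0.47, adjusted p = 0.692).

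The immunoproteasome subunits differed less than Tap1 in size, and none passed the test. Psmb10, which encodes the inducible trypsin-like subunit, had signals of 6489, 6322, 9377 and 7678 in GL261, against 4946, 5500 and 5920 in normal brain. The groups did not overlap, and GL261 replicate 3 was highest. The means were 7467 ± 1409 in GL261 (SD, n = 4) and 5455 ± 488 in normal brain (SD, n = 3), a log2 difference of 0.44 (SE 0.16, 95% interval 0.08 to 0.80, limma adjusted p = 0.112). Psmb10 was called higher under quantile normalization (0.53, adjusted p = 0.00298) and with the level of the hybridisation controls as a covariate (0.56, adjusted p = 0.0103). Non-overlapping groups were found in 3 of 9 members (Tap1, Tap2 and Psmb10) and in 23.4% of all tested genes.

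Psmb8, the inducible chymotrypsin-like subunit, had signals of 3207, 3396, 4821 and 4551 in GL261, against 2949, 3537 and 3650 in normal brain. GL261 replicates 3 and 4 were above all normal brain arrays, and replicates 1 and 2 lay among them. The log2 difference was 0.22 (SE 0.18, 95% interval -0.16 to 0.61, adjusted p = 0.458). A second, dim Psmb8 probe set gave 0.08 (SE 0.59, adjusted p = 0.958). Psmb9, the inducible subunit that replaces the caspase-like one, had signals of 4624, 4647, 6686 and 6508 in GL261, against 4505, 4610 and 5850 in normal brain. The same split was seen, with GL261 replicates 1 and 2 beside normal brain replicates 1 and 2. Its log2 difference was 0.16 (SE 0.18, 95% interval -0.23 to 0.55, adjusted p = 0.616). Psmb9 shares its promoter stretch with Tap1, and the difference of log2 signals, Tap1 minus Psmb9, was -0.87 ± 0.29 in GL261 (SD, n = 4) and -1.39 ± 0.39 in normal brain (SD, n = 3). It was -0.55, -0.68, -1.06 and -1.17 in GL261, against -1.02, -1.36 and -1.79 in normal brain, so the arrays overlapped. This pair was set side by side after its values were seen and was not tested.

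**Figure D2:**
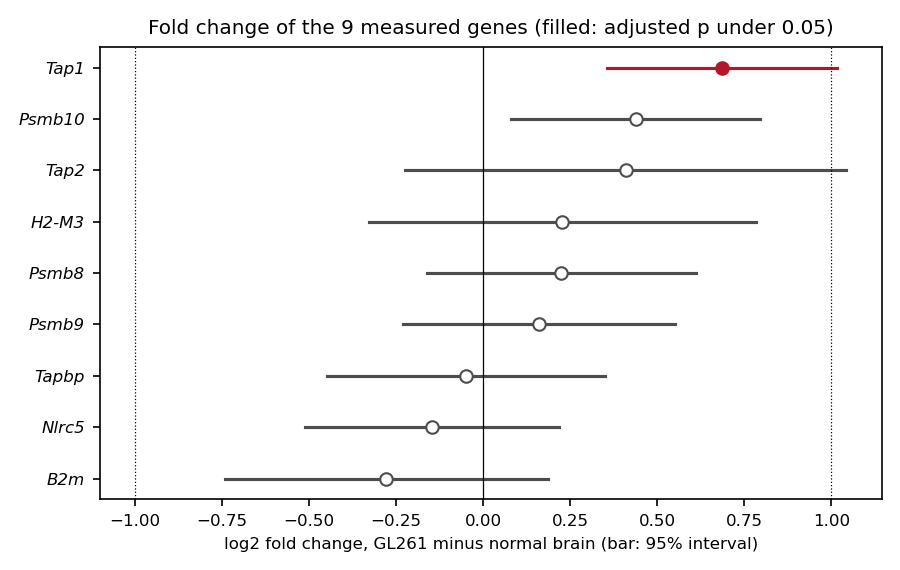
Log2 fold change, GL261 minus normal brain, of the 9 measured genes (points) with the 95% interval of the limma fit (bars), ordered by size; the filled point is called at an adjusted p under 0.05, and dotted lines stand at 2-fold either way. Tap1 is the only filled point at 0.69, and the intervals of Tap1 and Tap2 alone cross the 2-fold line.

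Each inducible subunit was set against the constitutive one whose place it takes, as the difference of log2 signals on the same array, in which only the shift between groups has meaning. Psmb8 minus Psmb5 was 1.22, 0.66, 0.68 and 1.08 in GL261, against 1.24, 1.30 and 1.23 in normal brain. All GL261 arrays were below the normal brain arrays, replicate 1 by the smallest margin. The difference between group means was -0.35 (two-sided exact permutation p = 0.114). Psmb9 minus Psmb6 was -0.11, -0.24, -0.33 and -0.14 in GL261, against 0.36, -0.17 and 0.25 in normal brain. Normal brain replicate 2 lay among the GL261 arrays, and the difference was -0.35 (exact permutation p = 0.0857). Psmb10 minus Psmb7 was 0.15, 0.39, 0.61 and 0.34 in GL261, against 0.12, 0.03 and 0.32 in normal brain. These groups overlapped, and the difference of 0.22 ran the other way (exact permutation p = 0.143). All 3 had an adjusted exact p of 0.143 over the 3 pairs, so no shift between constitutive and inducible subunits passed the test in either direction. The smallest exact p that 35 assignments allow is 0.0286. After adjustment over 3 pairs, 1 pair alone could not pass even at that value. The missing calls therefore do not show that there was no shift.

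**Figure D3:**
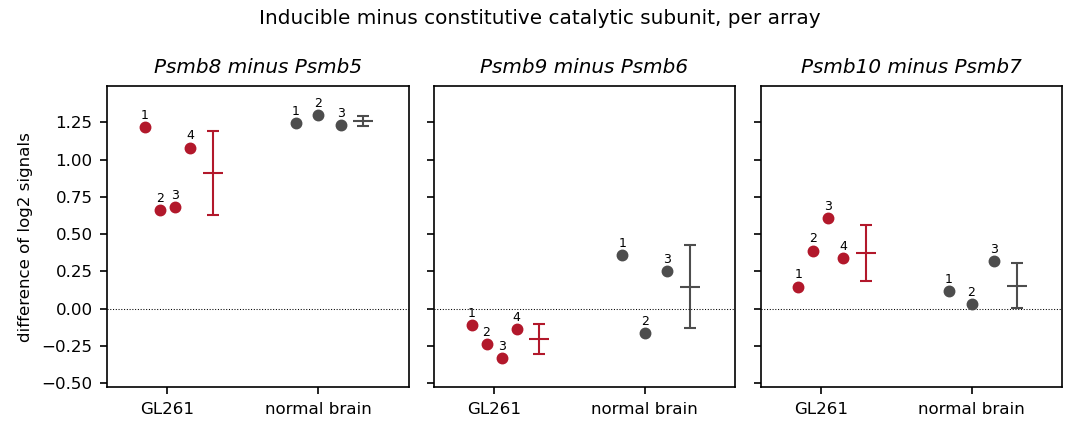
Difference of log2 signals, inducible minus constitutive catalytic subunit, on each GL261 array (left, red) and normal brain array (right, grey) for 3 pairs; numbers are replicates, and the bar is the mean with its SD. The group means differ by -0.35 for Psmb8 minus Psmb5, by -0.35 for Psmb9 minus Psmb6 and by 0.22 for Psmb10 minus Psmb7.

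The constitutive partners were not called either: Psmb5 had a log2 difference of 0.57 (SE 0.23, adjusted p = 0.145), Psmb6 of 0.51 (SE 0.20, adjusted p = 0.134) and Psmb7 of 0.22 (SE 0.14, adjusted p = 0.36). Through their brightest probe sets, all 14 constitutive 20S subunits had a fold change above 0, with a median of 0.34 against 0.04 over all tested genes. Dimmer probe sets gave -0.28 and -0.27 for Psmb1 and 0.29, -0.02 and -0.40 for Psma6, without a call. Those of Psma3, Psma5, Psma7, Psmb3 and Psmb4 lay above 0, also without a call. Of all tested genes 10.1% were called, and of the 14 subunits 1 was. That was Psma1, an alpha ring subunit, with 4125, 4250, 4483 and 4979 in GL261, against 2617, 2441 and 2420 in normal brain. The groups were far apart, and Psma1 rose by 0.83 on the log2 scale (SE 0.14, limma adjusted p = 0.00384). Its 3 other probe sets, all dimmer, were not called, and 1 of them had a fold change below 0. The median over the 9 loading and immunoproteasome genes, 0.22, was lower than that of the constitutive subunits, and no test was made of that difference.

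B2m, the invariant light chain of class I, had signals of 12373, 12978, 20250 and 19534 in GL261, against 16128, 18773 and 23590 in normal brain. GL261 replicates 1 and 2 were below all normal brain arrays, and replicates 3 and 4 lay among them. The log2 difference of -0.28 was not called (SE 0.21, 95% interval -0.74 to 0.18, limma adjusted p = 0.443). A second B2m probe set gave -0.25 (SE 0.23, adjusted p = 0.565). The spread of B2m over arrays went with that of control probe sets, of which actin is the sample's own RNA. The cause was not tested. The Cre hybridisation control, added to each sample, had 20766, 16458, 28609 and 28786 in GL261, against 24318, 28610 and 37799 in normal brain. The 3′ actin control had 11974, 12078, 20293 and 19810 in GL261, against 15358, 17198 and 21608 in normal brain. On all 3, GL261 replicates 3 and 4 were above 1 and 2, and normal brain replicate 3 was highest of its group. The B2m difference was -0.41 to -0.13 with 1 array left out at a time, and 0.035, of the opposite sign, under quantile normalization.

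**Figure D4:**
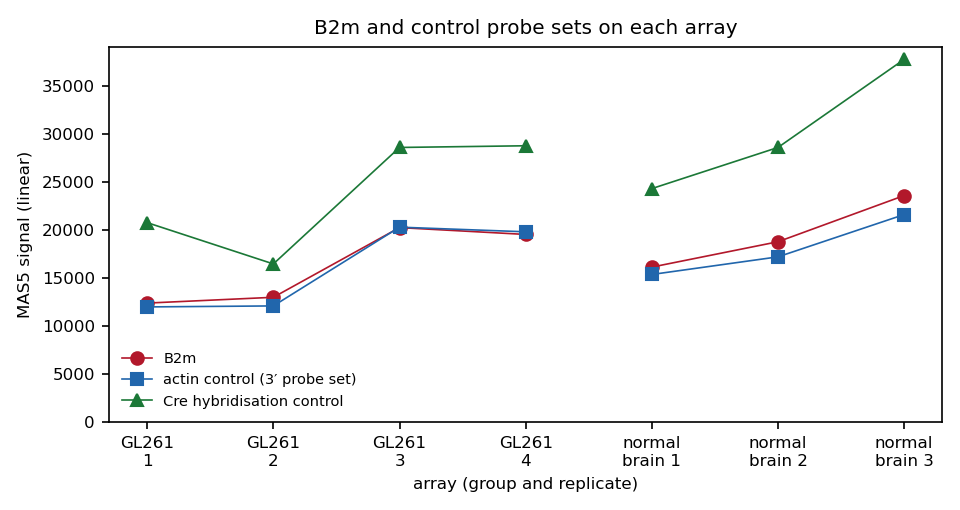
MAS5 signal (linear axis from 0) of B2m, the 3′ actin control and the Cre hybridisation control on the 4 GL261 and 3 normal brain arrays; lines join arrays of 1 group only to guide the eye, and replicates have no order. All 3 are higher on GL261 replicates 3 and 4 than on 1 and 2 and highest on normal brain replicate 3, with B2m at 12373 on GL261 replicate 1 and 23590 on normal brain replicate 3.

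The same array pattern ran through much of the machinery. GL261 replicates 1 and 2 were both below 3 and 4 in 5 of 9 genes (Tapbp, Psmb8, Psmb9, Psmb10 and B2m), against 18.5% of all tested genes. Normal brain replicate 3 was the highest of its group in 7 of 9 (these 5, H2-M3 and Nlrc5), against 33.9%. Tap1 and Tap2 followed neither pattern. These patterns were noticed in the values and were not tested. With the level of the hybridisation controls as a covariate, a setting chosen after the data were seen, 2 of the 9 genes were called, Tap1 and Psmb10, both higher.

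H2-M3, a nonclassical heavy chain that presents formylated peptides of bacteria and mitochondria, had signals of 2776, 3452, 4391 and 2568 in GL261, against 2373, 2056 and 4278 in normal brain. Normal brain replicate 3 lay beside the highest GL261 array, so the groups overlapped. The log2 difference was 0.23 (SE 0.25, 95% interval -0.33 to 0.78, adjusted p = 0.614), and it ranged from 0.017 without normal brain replicate 2 to 0.54 without normal brain replicate 3. Nlrc5, the class I transactivator, had signals of 4826, 5211, 5023 and 6706 in GL261, against 5180, 5677 and 7254 in normal brain. The groups overlapped, with GL261 replicates 1 and 3 lowest, and the log2 difference of -0.15 was not called (SE 0.17, 95% interval -0.51 to 0.22, adjusted p = 0.619). With 1 array left out at a time it ranged from -0.25 to -0.0074, that nearest 0 without normal brain replicate 3. In the main fit through the brightest probe set, the 95% interval of 7 of the 9 genes excluded a 2-fold difference either way. These were all but Tap1 and Tap2, with bounds from -0.74 to 0.80 on the log2 scale. Such an interval was found in 41.0% of all tested genes. The dimmer probe sets of Psmb8 (-1.21 to 1.37) and Tapbp (-0.65 to 1.39) had intervals that reached past 2-fold. With arrays centred on their median, the SE of B2m was 0.39, against 0.21 in the main fit.

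Around this machinery, 7 lists of class I pathway genes were counted. Their counts stand beside 5.92% of all tested genes called higher and 4.2% called lower. Of 26 class I heavy chain genes, 14 had a probe set of their own, 9 were tested and 0 were called. The smallest p-values were those of Mr1, which presents vitamin metabolites (log2 1.69, SE 0.66, limma adjusted p = 0.129), and H2-Q10 (log2 -0.80, SE 0.49, adjusted p = 0.331). H2-K1 and H2-D1, the classical heavy chains, named here after their values were seen, had log2 differences of -0.02 and -0.03 (adjusted p = 0.965 and 0.93). Heavy chain genes are near-identical copies, and these probe sets may detect several of them.

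Of 15 tested genes of the loading complex and of peptide trimming, 2 rose and 0 fell, with a median fold change of 0.25. Lap3, a cytosolic leucine aminopeptidase, had 2395, 2422, 2794 and 2036 in GL261, against 1021, 733 and 1747 in normal brain, and rose by 1.13 on the log2 scale (SE 0.26, limma adjusted p = 0.0182). Tapbpl, the tapasin-related peptide editor TAPBPR, had 1378, 890, 1161 and 1036 in GL261, against 561, 458 and 728 in normal brain, and rose by 0.94 (SE 0.24, adjusted p = 0.0322). Neither gene's groups overlapped. A second, dimmer Tapbpl probe set gave 0.85, without a call. Of 9 tested proteasome activator and assembly genes, 1 rose and 0 fell, with a median of 0.38. This was Psme4, which encodes the nuclear activator PA200 (log2 0.88, SE 0.16, adjusted p = 0.00803), through the brightest of its 6 tested probe sets. The other 5 were not called, with log2 differences of 0.44, 0.57, 0.18, -0.0027 and -1.58. Psme1, a subunit of the interferon-induced activator PA28, had a log2 difference of 0.08 (SE 0.20, adjusted p = 0.839). Psme2 and Psme2b had no probe set of 1 symbol.

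**Figure D5:**
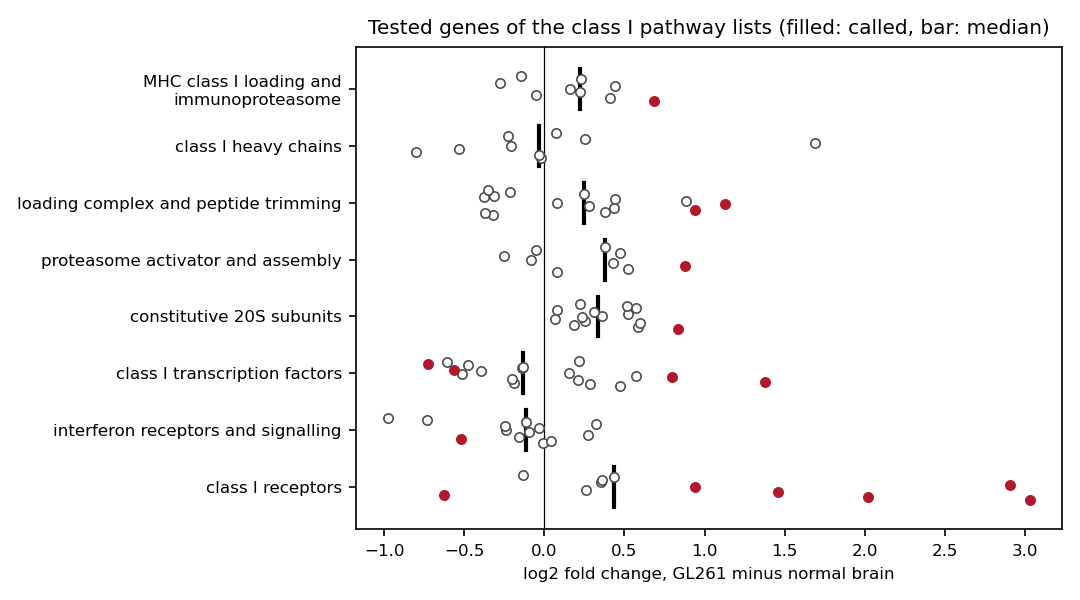
Log2 fold change, GL261 minus normal brain, of each tested gene of the loading and immunoproteasome machinery (top row) and of 7 class I pathway lists; filled points are called at an adjusted p under 0.05, and the vertical bar is the list's median. The 14 constitutive 20S subunits all lie above 0, and the class I receptors hold the points farthest right, Cd8a at 3.03 and Klra7 at 2.91.

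Of 18 tested class I transcription factors, 2 rose and 2 fell, with a median of -0.14. Irf7, a factor of the type I interferon response, had 3616, 4817, 4709 and 4133 in GL261, against 1906, 1672 and 1398 in normal brain. It rose by 1.38 on the log2 scale (SE 0.16, limma adjusted p = 0.00069), and its groups were far apart. Stat2, which carries type I interferon signals to the ISRE, rose by 0.80 (SE 0.22, adjusted p = 0.0433). With adjustment over probe sets Stat2 was not called (limma adjusted p = 0.062), nor was its dimmer probe set (0.41, adjusted p = 0.593). Relb, an NF-kappaB subunit, fell by 0.73 (SE 0.18, adjusted p = 0.0268), and Nfya, a subunit of the factor that binds the Y box, fell by 0.57 (SE 0.13, adjusted p = 0.0196), while the 2 dimmer Nfya probe sets had fold changes above 0 that were not called. Irf1, a factor that binds the ISRE, had a log2 difference of 0.47 (SE 0.20, adjusted p = 0.149), and Ciita, the class II counterpart of Nlrc5, of 0.21 (SE 0.23, adjusted p = 0.595). Nfkb1 had no probe set of 1 symbol.

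Of 13 tested interferon receptor and signalling genes, 0 rose and 1 fell, with a median of -0.11. Ifnar1, a chain of the type I interferon receptor, had 2027, 2457, 2258 and 1929 in GL261, against 2949, 3163 and 3185 in normal brain. All GL261 arrays were below the normal brain arrays, and Ifnar1 fell by 0.52 on the log2 scale (SE 0.15, limma adjusted p = 0.0446). With adjustment over probe sets it was not called (limma adjusted p = 0.0752). A second, dimmer Ifnar1 probe set gave -0.08 (adjusted p = 0.931 over probe sets). The chains of the interferon gamma receptor, Ifngr1 and Ifngr2, had log2 differences of -0.01 and 0.04 (SE 0.14 and 0.18, adjusted p = 0.979 and 0.923).

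Of 11 tested class I receptor genes, 5 rose and 1 fell, with a median of 0.44. Cd8a, the alpha chain of the CD8 co-receptor of T cells, which some dendritic cells also carry, had 351, 262, 241 and 455 in GL261, against 42.1, 21.1 and 41.2 in normal brain. It rose by 3.03 on the log2 scale (SE 0.48, limma adjusted p = 0.00317), and Cd8b1, the beta chain, rose by 2.02 (SE 0.53, adjusted p = 0.034). Klra7 rose by 2.91 (SE 0.63, adjusted p = 0.0147) and Klrc1, an NKG2 receptor chain, by 1.46 (SE 0.36, adjusted p = 0.0268). Klra genes are near-identical copies, so Klra7 is uncertain, and its second probe set was not called (0.42). Nor was the second, dimmer Klrc1 probe set (0.33). Klrd1, the CD94 partner of the NKG2 chains, fell by 0.63 (SE 0.16, adjusted p = 0.0316). With adjustment over probe sets, Klrd1 and Cd8b1 were not called (limma adjusted p = 0.053 and 0.055). Cd3e, which marks T cells, was not called at a log2 difference of 0.38 (SE 0.41, adjusted p = 0.603), beside the summed T and NK cell markers given above. The other CD3 chains, Cd3d and Cd3g, named after their values were seen, had 0.82 and 1.49, also without a call (adjusted p = 0.249 and 0.095). Of the 10 tested T and NK cell markers, 8 had a fold change above 0, with a median of 0.62. Of the 9 macrophage markers, 5 had a fold change above 0, with a median of 0.05, and 1 was called, Mertk, which was named after its value was seen and rose by 1.06 (SE 0.26, adjusted p = 0.0243). The sorting marker Adgre1 had a log2 difference of -0.39 (SE 0.13, adjusted p = 0.0814) and Csf1r of -0.28 (SE 0.20, adjusted p = 0.394).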

How the data were processed

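Macrophage RNA from 4 GL261 and 3 normal brain preparations had been hybridised to Affymetrix mouse arrays. The deposited values are linear signal intensities, made by the authors with MAS5 per the submitters' processing notes, whose version is not given in the sources used here. Replicates were not pooled, and 0 value columns belonged to no sample. Of 45101 probe sets, 64 were controls, 34945 had 1 gene symbol, 932 several and 9160 none. Symbols were checked through gene IDs against RefSeq (GRCm38.p6), of which 162 did not match, and 0 were changed. The labels name no genome build for the array, so RefSeq coordinates serve only the printed sequences.

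From these, log2(signal + 6) was computed, 6 being the 20th percentile of all values, with no further scaling. Each gene took its brightest probe set by mean log2 value, and genes above the 40th percentile of probe set means (log2 4.93) were tested. Groups were compared in R 4.3.3 with limma 3.58.1, with moderated variances following the signal, two-sided, and Benjamini-Hochberg adjustment over 12125 genes, or over 27022 probe sets. Subunit pairs and array measures had two-sided exact permutation tests on the absolute difference of means over 35 assignments. Background on an array was the 95th percentile of 27 unspiked Bacillus control probe sets. Plots used matplotlib 3.10.9 under Python 3.11.15. The fit was tested on simulated data.

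The members and lists were chosen with earlier results of these data known. All members were named. From each pathway list up to 4 called genes of largest change in the direction of most calls and 2 in the other were named, or, with none called, the 2 with the smallest p. Psmb5, Psmb6, Psmb7, Irf1, Ifngr1, Ifngr2, Psme1, Psme2, Ciita, Adgre1, Csf1r and Cd3e were always named. Alternatives were another pseudocount (1 or 58), another filter (none, or the 60th percentile), quantile normalization, median centring, a replicate block, variances not following the signal, array weights, the mean of a gene's probe sets, each array left out, GL261 replicate 2 and normal brain replicate 1 left out together, and, chosen once the data had been seen, the mean of 18 hybridisation control probe sets as a covariate. A probe set with more than 1 symbol, or without any, stood for no gene.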

Additional observations from a re-analysis of the deposited data

How the results depend on the processing

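The direction held under all 19 alternatives for every member but Tapbp and B2m. Tapbp turned to 0.16 under quantile normalization and 0.16 with the mean of probe sets, 0.013 with array weights and 0.12 with the hybridisation control covariate, and ranged from -0.20 to 0.090 with 1 array left out. It was above 0 without normal brain replicate 3 (0.090), GL261 replicate 1 (0.021) and GL261 replicate 2 (0.027). B2m turned to 0.035 under quantile normalization. Genes called numbered 1227, but 810 with median centring, 455 with variances not following the signal, and 542 to 1171 with 1 array left out (542, 722 and 730 without GL261 replicates 3, 1 and 4). Members called numbered 1, but 0 with median centring, variances not following the signal or the mean of probe sets, 2 under quantile normalization or the covariate, and 0 to 1 with 1 array left out. Member probe sets called numbered 1, but 0 without a filter, with median centring, with variances not following the signal, with array weights or without GL261 replicate 2 and normal brain replicate 1 together, 2 under quantile normalization or the covariate, and 0 to 1 with 1 array left out. Of that last set, 0 were called without normal brain replicate 2 or 3 or any 1 GL261 array. The causes were not tested. No subunit pair passed under the 4 alternatives that kept all 7 arrays and were run on pairs (pseudocounts of 1 and 58, quantile normalization and the mean of probe sets). With arrays left out the exact test cannot pass, and the other alternatives were not run on pairs.

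The labels do not say whether the replicate numbers pair the arrays. Same-numbered deviations from the group means correlated at 0.0792, -0.00754 and 0.031, and differently numbered ones at -0.0678 to 0.0551. Values this small, from so few arrays, cannot decide whether arrays were paired. With the replicate number as a block, which leaves GL261 replicate 4 without a partner, 1004 genes and 2 members were called, Tap1 higher and B2m lower (-0.38, adjusted p = 0.0351).

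Signals are relative to each array's scaling, so a change in total RNA per cell cannot be seen, and dim probe sets near background bear little weight.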
